A study of Rattus norvegicus with 4 samples.

Results

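The genes described here are the dermal collagens and structural matrix genes of rat footpad skin. They were chosen by a rule on symbols, set with earlier results of these data known. The rule took collagen chains, laminins, fibrillins, fibulins, Efemp and Emilin genes, lysyl oxidases, Sparc and Sparcl1, thrombospondins and nidogens, with Eln, Dcn, Lum, Fmod, Bgn, Ogn, Comp, Postn, Tnc, Tnxb, Fn1, Vcan and Prelp. In all, 62 of the 18957 genes and UniGene-type entries in the files met this rule. Hspg2, also in the rule, was not analysed here. The skin came from the hindlimbs of Sprague Dawley rats, an outbred stock, on days 0, 3, 6 and 9, and each day was measured with 1 library. By the labels' protocols, the footpads received 10 Gy of 9 MeV electrons at 500 cGy/min on days 1, 2, 4 and 5. Day 3 skin was thus taken after 2 irradiations, day 6 and day 9 skin after 4, and day 0 skin before any. The sample descriptions disagree with this in places: the day 0 description names day 1 as its collection day, and each later description names 1 irradiation day. The sample titles were followed, and neither the age nor the sex of the rats nor the number of rats in a library is given in the labels.

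The libraries held 1952921 to 1982608 tag counts assigned to genes, and 56 to 58 of the 62 members were listed in each. No spread between animals can be had from single libraries, so nothing here was tested across animals. Every ratio below is one of scaled counts in 2 libraries, and its interval is an exact 95% Clopper-Pearson interval that covers counting error only. A member was called higher or lower by size alone, which took a ratio of 2 or more whose interval left out 1, and 50 or more counts in whichever library was higher. Markers that define skin were present: the epidermal keratin genes Krt1 and Krt10 had 21013 to 38510 and 4763 to 13717 counts, while Krt5, Lor and Ivl were not analysed here. In such bulk samples, more cells of a type and more RNA in each cell cannot be told apart.

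The dermis is built by fibroblasts. Type I and type III collagens form its fibrils, which type V collagen starts and which fibril-associated collagens and small leucine-rich proteoglycans coat and space. Lysyl oxidases crosslink collagen and elastin, and elastic fibres consist of an elastin core on a fibrillin scaffold held by fibulins. Laminins, type IV collagen and nidogens form the basement membrane, to which type XVII and type VII collagens fasten the epidermis. Long after irradiation, skin is known for fibrosis, an excess of this matrix.

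In this assay each transcript was counted through a tag of 21 bases that begins at a CATG site, the site being numbered from the 3' end of the transcript. The tags below carry most copies of the members on which the results turn, read 5' to 3' from the deposited tables, with the CATG site in capitals. They are shown because a ratio of a gene is a ratio of the copies of these tags, and for Col1a1, Col1a2, Sparc and Lum more than 1 site is given since their sites moved by different amounts.
Col1a1, site 5: CATGgactttggaaaacattt
Col1a1, site 1: CATGtggaaatgacccaacgc
Col1a2, site 1: CATGaacatttgcaaaaaaaa
Col1a2, site 2: CATGcgcctgctagccaaccg
Col3a1, site 1: CATGtgttcctcttgctttaa
Sparc, site 1: CATGcgaactctcacagtgat
Sparc, site 6: CATGgaacattgcaccactcg
Lum, site 1: CATGttatgattaacaagctg
Lum, site 6: CATGgattttaattaataaag
Dcn, site 1: CATGggctatgtaaaattttc
Fmod, site 1: CATGagtggtggccaacctga
Eln, site 1: CATGtctcaccaaccccacct
Lox, site 1: CATGccatttggtgttaaatt
Comp, site 1: CATGtggaaacagatggagca
Loxl2, site 1: CATGcctgtaatccccgcact

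The matrix genes took a larger share of the gene counts in each later library than on day 0. They held 1.46% (1.45 to 1.48) of gene counts on day 0, 6.01% (5.97 to 6.04) on day 3, 4.47% (4.45 to 4.50) on day 6 and 4.09% (4.06 to 4.12) on day 9, with exact binomial intervals. Most of this came from Sparc, Dcn, Col1a1 and Col3a1, which together made up 71.2, 84.4, 85.3 and 84.4% of the member counts on days 0, 3, 6 and 9. The share was thus highest on day 3 and stayed above the day 0 value to day 9. Fibrillar collagens held 0.319, 2.11, 1.52 and 1.39% of gene counts on days 0, 3, 6 and 9, and matricellular and adhesive proteins, Sparc among them, 0.354, 2.22, 1.61 and 1.40%. Basement membrane genes stayed between 0.111 and 0.130%, so the added share lay almost wholly outside them.

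Against day 0, 22 members were higher and 1 was lower on day 3, 15 were higher and 1 lower on day 6, and 12 were higher and 1 lower on day 9. The remaining 39, 46 and 49 of the 62 passed neither side of the rule. Among all genes that reached 50 counts, 8.54, 7.48 and 10.7% were higher on days 3, 6 and 9, and 7.88, 13.1 and 10.4% were lower, or 16.4, 20.6 and 21.1% in either direction. Of the members, 38, 37 and 37 had that many counts, but a member that reached this number through a later library alone had to be higher, so this count is a description. In 49 members the mean over the 4 libraries was 10 counts or more, and their median log2 ratio to day 0 was 0.87 on day 3, 0.63 on day 6 and 0.55 on day 9, beside -0.01, 0.03 and 0.00 over the 9876 genes with that mean. All 3 comparisons share the day 0 library, so its own error enters each of them.

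**Figure D1:**
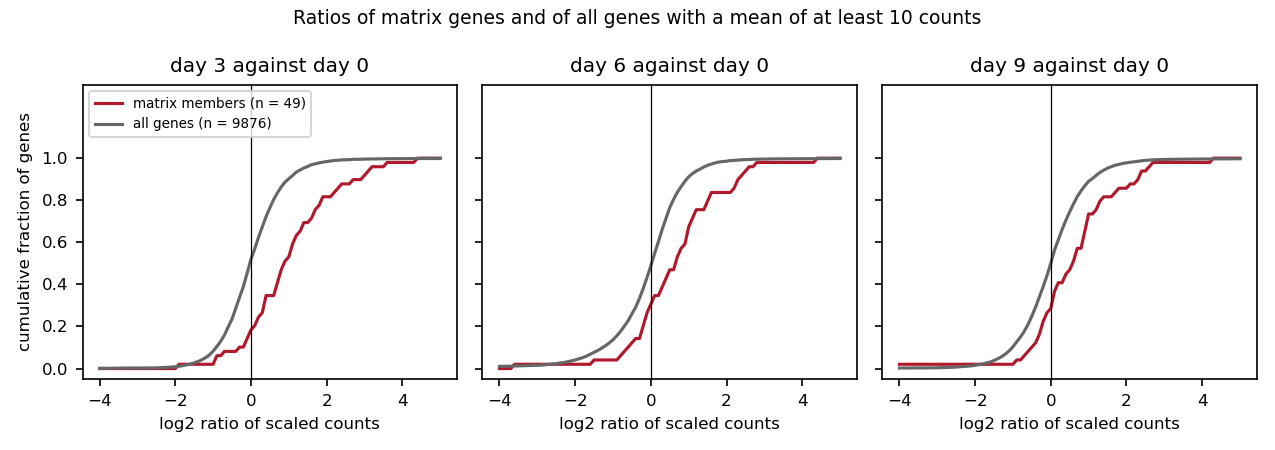
Cumulative fraction of genes (vertical axis) at or below each log2 ratio of scaled counts (horizontal axis) for days 3, 6 and 9 against day 0, for the 49 matrix members (red) and the 9876 genes (grey) that average 10 counts or more. The red curve lies right of the grey one over most of its length on each day, with medians of 0.87, 0.63 and 0.55 for the members against -0.01, 0.03 and 0.00 for all genes.

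Marker genes of other cell types also differed between these libraries, and their part in the matrix results was not tested. Of the 12 fibroblast markers all were listed, and their summed level was 2447, 2993, 2616 and 2158 CPM after scaling on days 0, 3, 6 and 9. On day 3, 2 of them were higher and none lower: Mfap4, a microfibril protein, with 332 counts on day 3 and 89 on day 0, and S100a4, a calcium-binding protein, with 277 and 93. Vim, the main intermediate filament gene of mesenchymal cells, had 3640, 3967, 3575 and 2609 counts, and was not called on day 3. It held most of the list's summed counts of 4904, 6028, 5091 and 4120, so the sum mainly follows Vim. Against day 0, 1 marker was called higher and 1 lower on day 6, and 2 were higher and 1 lower on day 9. The markers that reached 50 counts in the comparisons of days 3, 6 and 9 with day 0 numbered 7, 7 and 8. Among all genes with that many counts, 8.54, 7.48 and 10.7% were higher and 7.88, 13.1 and 10.4% lower. So few calls are no result about the fibroblast list as a whole. Mfap4 had 227 and 191 counts on days 6 and 9, and S100a4 had 176 and 209. Dpt had 248, 439, 368 and 328 counts, and Thy1 had 347, 479, 448 and 475. The only marker called lower on either day was Pi16, a marker of a fibroblast subset, with 88, 87, 32 and 37 counts. It was 2.65-fold (1.76 to 4.14) lower on day 6 and 2.25-fold (1.53 to 3.42) on day 9. Mfap5 had 316, 313, 180 and 183 counts and Pdgfrb 27, 28, 11 and 12, and neither was called against day 0.

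The adipocyte list had 7 of 8 markers listed and summed to 193, 715, 276 and 482 CPM, highest on day 3. The 9 listed macrophage markers summed to 383, 969, 670 and 675 CPM, and the 9 listed keratinocyte markers to 30285, 24290, 38668 and 28365. Skeletal muscle markers, 10 of 11 listed, summed to 2363, 4757, 46.2 and 4423, and on day 6 all but Des of the 10 were at 0 counts. Sweat gland markers, 5 of 7 listed, summed to 235, 414, 62.2 and 273. Mural and myofibroblast markers (8 of 8 listed) summed to 713, 1181, 840 and 929, and nerve markers (6 of 6) to 439, 711, 565 and 488. Endothelial markers (7 of 8) summed to 96.8, 131, 167 and 143 CPM, and red cell genes (3 of 6) to 17.5, 759, 53.4 and 313. The day 6 library thus lacked the listed muscle markers other than Des and held few sweat gland marker counts. How this bears on its matrix share was not tested. Day 3 was the library in which the adipocyte, macrophage, muscle, sweat gland, nerve, mural and fibroblast sums were all highest and the keratinocyte sum lowest. The red cell sum was also highest on day 3, at 759 CPM, while the endothelial sum was highest on day 6, at 167 CPM.

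**Figure D2:**
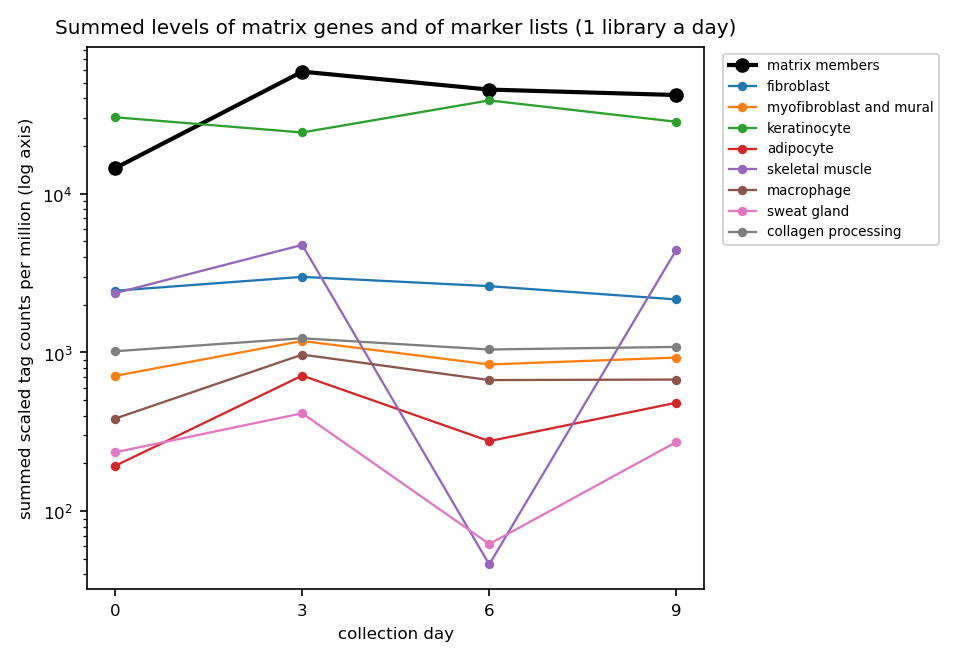
Summed scaled tag counts in CPM (log axis) of the 62 matrix members and of marker and processing lists by collection day, 1 library a day. The matrix sum is lowest on day 0. The skeletal muscle sum is 46.2 on day 6, and the fibroblast sum, most of which comes from Vim, lies between 2158 and 2993.

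The fibrillar collagens included the most abundant collagen transcripts, and those were higher on every later day. Of 8 members, 4 were higher on day 3, 3 on day 6 and 3 on day 9, and none was lower. Col1a1 (gene ID 29393), the alpha-1 chain of type I collagen, had 2001, 22815, 12663 and 12260 counts on days 0, 3, 6 and 9. It was 11.3-fold (10.8 to 11.9) higher on day 3, 6.51-fold (6.21 to 6.83) on day 6 and 6.43-fold (6.13 to 6.75) on day 9. Col1a2 (84352), the partner chain in the same triple helix, had 1301, 4475, 2527 and 3247 counts with ratios to day 0 of 3.42 (3.22 to 3.64), 2.00 (1.87 to 2.14) and 2.62 (2.46 to 2.80). It was called higher on days 3 and 9, the day 6 ratio being just short of the rule before rounding, and the intervals of both chains were apart on each day. Col3a1 (84032), the chain of type III collagen, had 2909, 13937, 14463 and 11431 counts and was 4.77-fold (4.58 to 4.96), 5.12-fold (4.92 to 5.33) and 4.12-fold (3.96 to 4.30) higher. It kept close to its day 3 level on day 6, when Col1a1 stood 1.74-fold (1.70 to 1.78) below day 3, short of the rule. Col5a2 (85250), a chain of the fibril-starting type V collagen, had 91, 199, 179 and 167 counts and was 2.17-fold (1.69 to 2.82) higher on day 3 and 2.02-fold (1.56 to 2.64) on day 6. The 4 other fibrillar chains had at most 37 counts in any library. Among them Col11a1, a chain better known from cartilage, had 4, 37, 4 and 3 counts, fewer than the rule asks for.

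**Figure D3:**
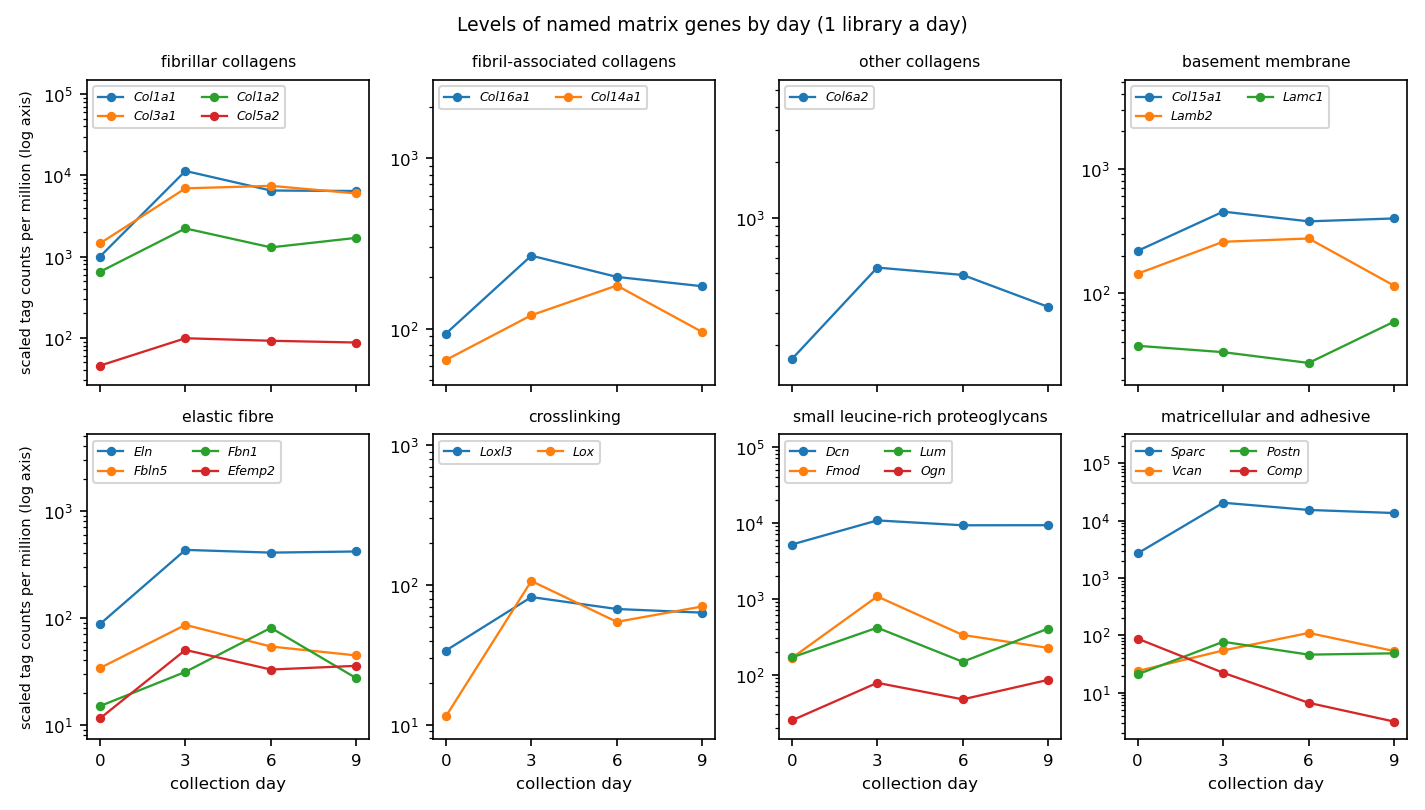
Scaled tag counts in CPM (log axis) by collection day for 24 named matrix genes in 8 role groups, 1 point for each library. Most lines are lowest on day 0, Comp alone of those drawn runs down on every day, and Fbn1, Vcan and Col14a1 are highest on day 6.

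Col16a1, which sits on fibrils and near elastic microfibrils, had 187, 539, 391 and 338 counts and was 2.86-fold (2.42 to 3.41) higher on day 3 and 2.15-fold (1.80 to 2.58) on day 6. Col14a1, which binds decorin on fibrils, had 131, 241, 348 and 182 counts and was highest on day 6, at 2.73-fold (2.23 to 3.37) above day 0. Of the type VI collagen chains, which form a beaded network around cells, Col6a2 had 337, 1073, 945 and 620 counts and was 3.16-fold (2.80 to 3.59) higher on day 3 and 2.88-fold (2.55 to 3.28) on day 6. Its partner chain Col6a1 had 419, 824, 673 and 606 counts, and its day 3 ratio of 1.96 (1.74 to 2.21) was just under the rule. Both chains followed one order, with day 3 highest and day 0 lowest. Of the 4 fibril-associated collagens 1 was higher on day 3, 2 on day 6 and none on day 9, and of the 5 others 1, 1 and none were.

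Among elastic fibre genes, Eln and Efemp2 were higher on all 3 later days. Eln (25043), the elastin of the fibre core, had 175, 869, 792 and 796 counts and was 4.93-fold (4.20 to 5.85), 4.65-fold (3.95 to 5.52) and 4.76-fold (4.05 to 5.66) higher on days 3, 6 and 9. Efemp2 (293677), the fibulin-4 that elastic fibre assembly requires, had 23, 101, 64 and 68 counts and was 4.30-fold (2.76 to 7.20), 2.83-fold (1.75 to 4.84) and 3.06-fold (1.91 to 5.22) higher. Fbln5, the fibulin-5 that ties elastin to microfibrils, had 68, 173, 105 and 85 counts and was 2.52-fold (1.90 to 3.40) higher on day 3 alone. Fbn1, the fibrillin-1 of the microfibril scaffold, followed another course, with 30, 63, 157 and 52 counts. It was 5.32-fold (3.63 to 8.25) above day 0 on day 6, 2.57-fold (1.91 to 3.51) above day 3, and 2.94-fold (2.15 to 4.13) lower again on day 9 than on day 6. Elastin counts were thus alike on the later days, while those of fibrillin-1 were highest on day 6. Of the 9 elastic fibre members, 4, 3 and 2 were higher on days 3, 6 and 9, and none was lower.

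The crosslinking enzymes were few and of low counts, and 4 of 5 were higher on day 3. Lox (24914), the lysyl oxidase that crosslinks collagen and elastin, had 23, 215, 106 and 134 counts and was 9.12-fold (6.04 to 15.0), 4.67-fold (3.00 to 7.81) and 6.01-fold (3.91 to 9.98) higher. Loxl3 had 68, 165, 131 and 121 counts and was 2.40-fold (1.81 to 3.25) higher on day 3. Loxl1, which acts on elastin, had 16, 59, 48 and 19 counts and was 3.59-fold (2.08 to 6.83) higher on day 3. Both enzymes were highest on day 3, as Lox was. Loxl2 had 2, 51, 50 and 46 counts and a day 3 ratio of 20.5 (6.67 to 215), all from the tag shown above. That tag lies 2 bases from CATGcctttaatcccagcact, which stood under no gene and had 99, 143, 105 and 107 copies, and from CATGcctctaatcccagcact, assigned to Aldh9a1, with 89, 127, 85 and 80. Such sequences are typical of B1 short interspersed repeats, which lie in many rodent transcripts, so the gene behind the Loxl2 count is uncertain. Without Loxl2, 21, 14 and 12 members were higher on days 3, 6 and 9.

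The small leucine-rich proteoglycans, which bind collagen fibrils and set their width and spacing, had 4 of 6 members higher on day 3, 1 on day 6 and 2 on day 9. Dcn (29139), decorin, had 10326, 21561, 17980 and 17676 counts. It was 2.08-fold (2.03 to 2.13) higher on day 3, and its ratios of 1.79 (1.75 to 1.84) on day 6 and 1.80 (1.75 to 1.84) on day 9 were short of the rule. Fmod (64507), fibromodulin, had 331, 2153, 647 and 429 counts and was 6.46-fold (5.76 to 7.29) higher on day 3. It was still 2.01-fold (1.76 to 2.30) above day 0 on day 6, 3.21-fold (2.94 to 3.52) lower than on day 3, and on day 9 its ratio to day 0 was 1.36 (1.18 to 1.57). Of the proteoglycans it thus had the largest fall after day 3. Ogn, osteoglycin, had 50, 157, 92 and 163 counts and was 3.10-fold (2.26 to 4.39) higher on day 3 and 3.40-fold (2.48 to 4.80) on day 9. Lum (81682), lumican, had 337, 835, 287 and 772 counts and was 2.46-fold (2.17 to 2.81) higher on day 3 and 2.40-fold (2.11 to 2.74) on day 9. On day 6 it was near day 0, and 2.81-fold (2.46 to 3.23) lower than on day 3. Bgn, biglycan, with 621, 984, 930 and 638 counts, was not called in any comparison, nor was Prelp, with 18 to 38 counts.

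Among matricellular and adhesive proteins, 3 of 10 members were higher than on day 0 on each later day and Comp was lower on each. Sparc (24791), a secreted glycoprotein that binds collagen and takes part in fibril assembly, had 5407, 41424, 29973 and 25980 counts. It was 7.62-fold (7.41 to 7.84), 5.71-fold (5.54 to 5.88) and 5.04-fold (4.90 to 5.19) higher. Postn, periostin, which aids crosslinking of collagen, had 42, 156, 90 and 93 counts and was 3.66-fold (2.61 to 5.33), 2.19-fold (1.51 to 3.26) and 2.31-fold (1.60 to 3.43) higher. Both were highest on day 3. Vcan, the large proteoglycan versican, had 48, 110, 215 and 102 counts and was highest on day 6, at 4.57-fold (3.36 to 6.44) above day 0. It was 2.27-fold (1.61 to 3.27) higher on day 3 and 2.22-fold (1.57 to 3.21) on day 9, so that its peak, like that of Fbn1, came on day 6. Fn1, the adhesive glycoprotein fibronectin, had 367, 478, 236 and 389 counts and was not called in any comparison. The same held for Sparcl1, the Sparc relative, with 807, 1320, 1054 and 667 counts, and for the thrombospondin Thbs4, with 133, 137, 130 and 95.

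Comp (25304), cartilage oligomeric matrix protein, a thrombospondin of tendon, cartilage and skin that binds collagen, went the other way. Its counts were 176, 45, 13 and 6 on days 0, 3, 6 and 9. It was 3.90-fold (2.82 to 5.58) lower on day 3, 12.7-fold (7.49 to 25.2) on day 6 and 25.9-fold (12.6 to 77.2) on day 9, while no other member was called lower than on day 0. Of the 8 tendon and cartilage markers 4 were listed. Chad, the cartilage protein chondroadherin, named here after its values were seen, had 31, 12, 0 and 0 counts, and Tnmd, the tendon protein tenomodulin, had 20, 94, 25 and 33. Chad did not reach 50 counts, while Tnmd was 4.59-fold (2.86 to 8.0) higher on day 3. The summed level of these 4 genes was 31.9, 64.5, 15.9 and 23.0 CPM, and the part of tendon or cartilage in the Comp result was not tested. The Comp tag is 2 bases from a Thbs4 tag, CATGtggaaacagacagagca, which had at most 3 copies in a library.

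**Figure D4:**
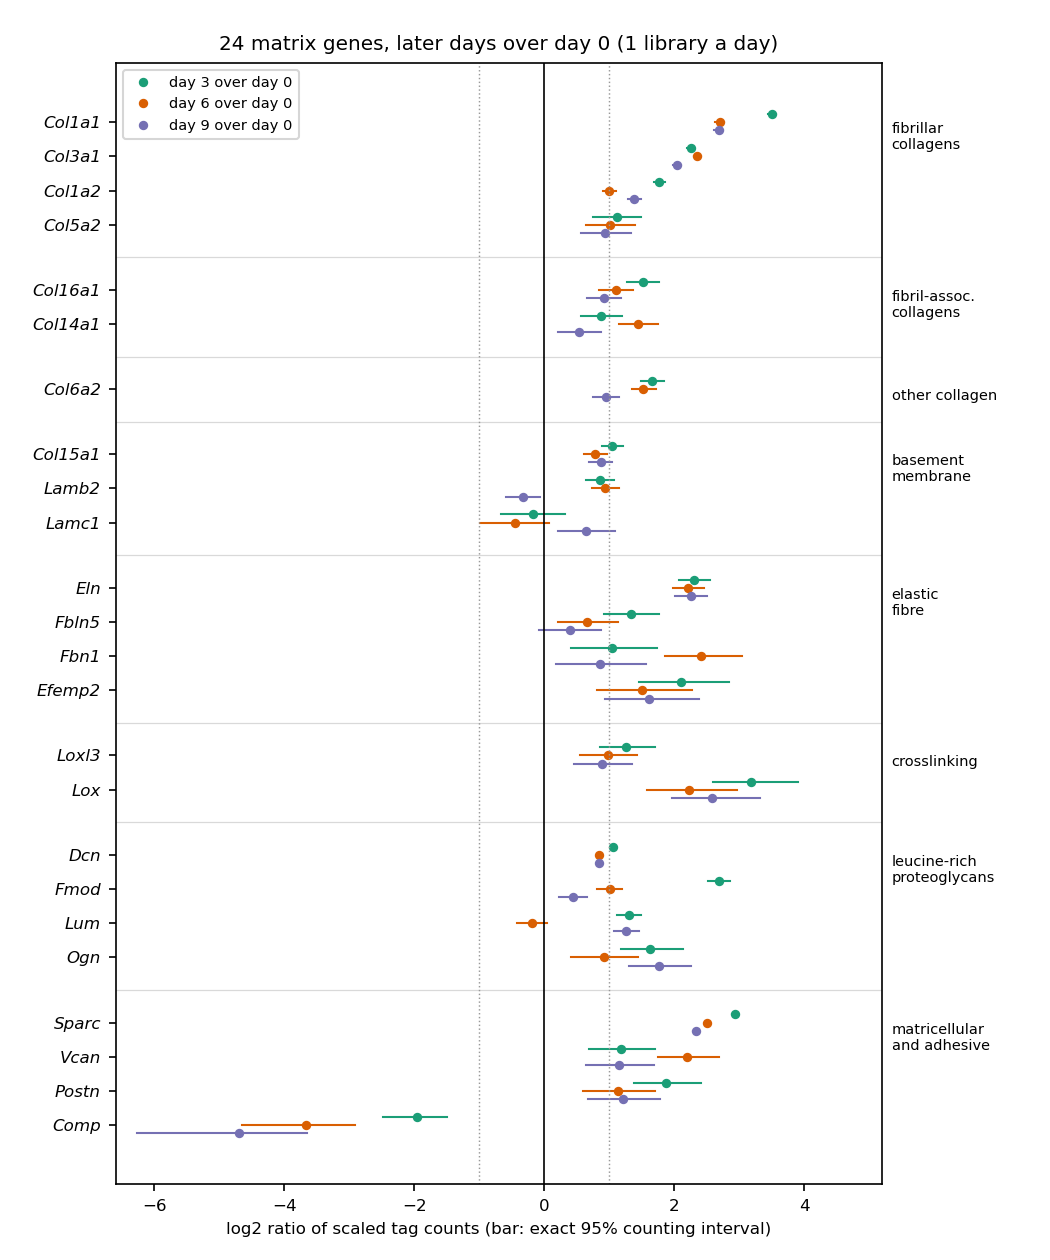
Log2 ratios of scaled tag counts (horizontal axis) to day 0 for 24 named matrix genes on days 3, 6 and 9, grouped by role, with bars for the exact 95% counting interval and dotted lines at 2-fold. Most points lie right of 0, and Comp lies at the left on all 3 days, down to 25.9-fold lower.

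Of the 15 basement membrane members, 9 reached 50 counts in the comparison of day 3 with day 0, and 9 in that of day 6. Of these, 1 was higher on day 3 and none on day 6, beside 8.54 and 7.48% of all such genes. So few calls are no result about the group. The median log2 ratio of the 12 with a mean of at least 10 counts was 0.16, -0.07 and 0.05 on days 3, 6 and 9, against 2.01, 1.01 and 1.17 for 6 fibrillar collagens. The difference between both groups was not tested. Col15a1, a collagen of the zone under the basement membrane, had 437, 910, 734 and 760 counts and was 2.07-fold (1.85 to 2.33) higher on day 3. Lamc1, the gamma-1 chain of many laminins, had 75, 67, 53 and 112 counts and was 2.14-fold (1.54 to 3.05) higher on day 9 than on day 6. That call rested on its site 1, with 55, 53, 22 and 82 copies, since site 10 had 20, 14, 26 and 27 copies, 1.06-fold apart between days 9 and 6. Lamb2, the beta-2 chain, had 286, 520, 534 and 218 counts and was 2.40-fold (2.05 to 2.83) lower on day 9 than on day 6.

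Lamb3, the laminin beta-3 chain of the epidermal basement membrane, had 112, 69, 61 and 109 counts and was not called. Lama3, a laminin alpha-3 chain, was listed with 2 counts on day 0 and none later. The anchoring genes of the epidermis were not called either: Col17a1, the type XVII collagen of hemidesmosomes, had 788, 423, 467 and 387 counts, and its day 3 level lay 1.87-fold (1.66 to 2.11) below day 0, short of the rule. Col7a1, the anchoring fibril collagen, had 176, 161, 144 and 99 counts. Col4a1, a chain of type IV collagen, had 89, 137, 107 and 168 counts, with a day 9 ratio of 1.98 (1.52 to 2.59) just short of the rule.

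Fewer members were called between the later days. On day 6 against day 3, 2 members were higher (Fbn1 and Vcan) and 2 lower (Fmod and Lum), beside 2.88% of genes higher, 6.74% lower and 9.63% in either direction. The median log2 ratio of the 49 members was -0.25, against 0.02 for all genes. On day 9 against day 6, 4 were higher (Lum, Lamc1 and Col13a1 among them) and 3 lower (Fbn1, Lamb2 and Vcan), beside 10% and 4.37% of genes, or 14.4% in either direction. Col13a1, a transmembrane collagen, had 40, 21, 24 and 61 counts and was 2.56-fold (1.59 to 4.35) higher on day 9 than on day 6. The median was then -0.12, against 0.00 for all genes. Of the 49 members, 29 had their highest scaled count on day 3, 8 on day 6, 7 on day 9 and 5 on day 0, and 27 had their lowest on day 0. In all, 8 members were called higher on all 3 later days: Col1a1, Col3a1, Sparc, Eln, Efemp2, Lox, Postn and Vcan. They were 8 of 36 members that reached 50 counts in all 3 comparisons, beside 2.82% of all such genes, and the comparisons share the day 0 library. Of the 8, Lox, Efemp2, Postn and Vcan had 23, 23, 42 and 48 counts on day 0. They reached 50 counts only through later libraries, so a call against day 0 could only be higher, and this count is a description.

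The sites behind a gene's count did not always move together. For Col1a1, site 1 had 297, 5740, 3089 and 3101 copies and site 5 had 1548, 15585, 8772 and 8480. Site 1 was 19.2-fold higher on day 3 and site 5 was 10.0-fold higher, so the share of site 1 in the gene's count was 25.2% on day 3, against 14.8% on day 0. On days 6 and 9 site 1 was 10.7-fold and 10.9-fold higher, and site 5 was 5.83-fold and 5.75-fold higher. Sparc site 1 was 8.70-fold, 6.33-fold and 5.52-fold higher on days 3, 6 and 9, and its site 6 was 4.12-fold, 3.68-fold and 3.54-fold higher. In both genes either site alone passed the rule on all 3 days, and site 1 always had the larger ratio.

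Col1a2 and Lum were split on day 6. Col1a2 site 1 had 444, 1964, 1514 and 1007 copies, and site 2 had 720, 1664, 505 and 1824. On day 6 site 1 was 3.51-fold higher than on day 0 and site 2 was 1.38-fold lower, so the gene's ratio of 2.00 on that day averaged tags that moved in opposite directions. For Lum, site 1 had 250, 589, 133 and 661 copies and site 6 had 76, 199, 129 and 93. On day 6 site 1 was 1.82-fold lower and site 6 was 1.74-fold higher than on day 0. The calls of Lum as lower on day 6 than on day 3 and higher on day 9 than on day 6 therefore rested on site 1, since site 6 was 1.49-fold lower and 1.36-fold lower in these comparisons. The sites of Vcan also differed. Site 3 had 12, 61, 112 and 62 copies, and site 6 had 16, 35, 77 and 18. Site 1 had 13, 5, 7 and 16 copies. It was 2.47-fold lower on day 3 and 1.75-fold lower on day 6 than on day 0, with intervals that included 1. On day 9 site 3 was 5.25-fold higher and sites 6 and 1 only 1.18-fold and 1.28-fold, so that call rested on site 3. From day 3 to day 6, site 3 was 1.89-fold higher, short of the rule, and site 6 was 2.26-fold higher. In 37 of the 62 members at least 90% of the copies were in 1 tag, among them Col3a1, Eln, Fmod, Comp and Postn. None of the tags shown above for Col1a1, Col3a1, Sparc, Lum, Fmod or Comp had a neighbour 1 base away with 3% of its copies and 10 copies in a library.

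**Figure D5:**
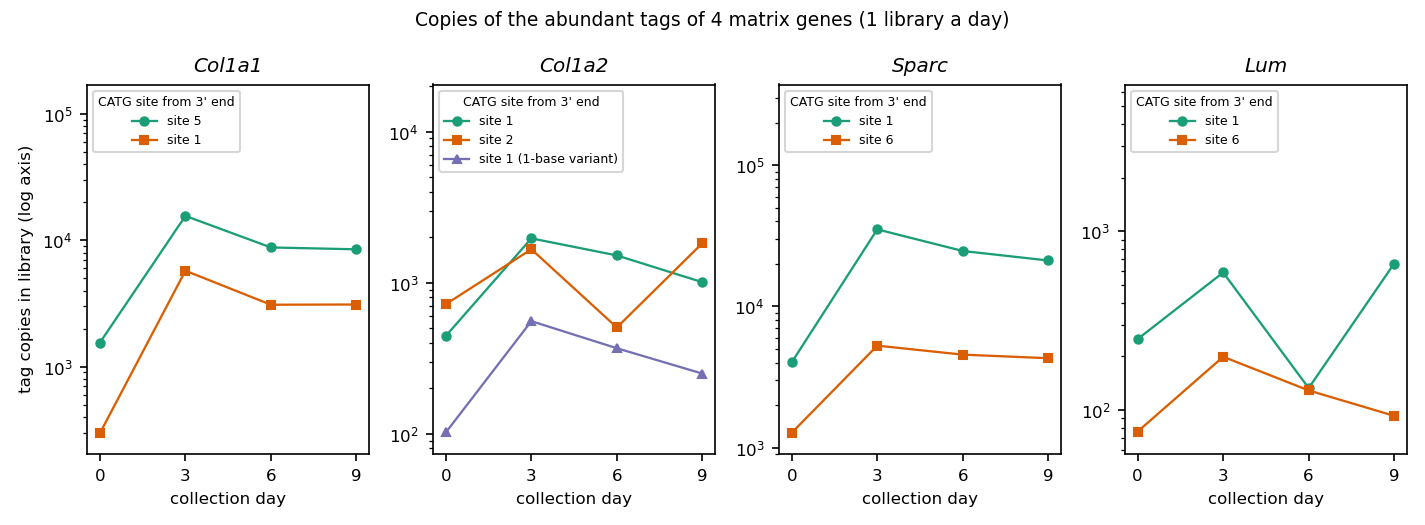
Copies of the abundant tags (log axis) of Col1a1, Col1a2, Sparc and Lum by collection day, 1 library a day, each tag named by its CATG site counted from the 3' end. Site 2 of Col1a2 and site 1 of Lum dip on day 6, at 505 and 133 copies, while the other tags of these genes do not.

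Genes that process procollagen were called in part. Of 33 names in that list 22 were in the files, and 10, 8 and 9 of these reached 50 counts in the comparisons of days 3, 6 and 9 with day 0. Of them 4 were higher on day 3, 2 on day 6 and 2 on day 9, with 1 lower on day 6. Among all genes with that many counts, 8.54, 7.48 and 10.7% were higher and 7.88, 13.1 and 10.4% lower. Bmp1, Fkbp7 and Tmem38b had under 50 counts on day 0, so a call of them against day 0 could only be higher. The median log2 ratio of 18 of the 22 was 0.33, 0.31 and 0.38. Bmp1, the proteinase that trims procollagen ends and activates Lox, had 33, 151, 109 and 153 counts and was 4.50-fold (3.11 to 6.85) higher on day 3. Pcolce, the enhancer of that cleavage, had 264, 729, 639 and 372 counts and was 2.74-fold (2.38 to 3.17) higher on day 3. Both act on procollagen outside the cell. Ppib, a prolyl isomerase that folds procollagen inside the cell, had 914, 580, 371 and 581 counts and was 2.39-fold (2.12 to 2.71) lower on day 6. Prolyl hydroxylase genes, which stabilise the helix, were not called: P4hb had 270, 200, 229 and 218 counts and P4ha2 had 76, 82, 103 and 129. The other 2 genes higher on day 3 were Fkbp7, an isomerase of the secretory pathway, at 3.19-fold (2.28 to 4.61), and Tmem38b, an ion channel of the endoplasmic reticulum, at 2.21-fold (1.46 to 3.47).

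Genes of collagen breakdown were partly higher as well. Of 13 listed, 6, 5 and 6 reached 50 counts in the comparisons of days 3, 6 and 9 with day 0. Of these, 3 were higher on day 3, 3 on day 6 and 2 on day 9, with 1 lower on day 6. Among all genes with that many counts, 8.54, 7.48 and 10.7% were higher and 7.88, 13.1 and 10.4% lower. Mmp2, the gelatinase that cleaves type IV and denatured collagens, had 975, 5655, 4967 and 3688 counts and was 5.77-fold (5.39 to 6.18) higher on day 3. Timp2, its inhibitor and cofactor, had 1140, 3272, 2864 and 2528 counts and was 2.85-fold (2.67 to 3.06) higher on day 3. Ctsk, cathepsin K, a collagen-degrading protease, had 171, 501, 344 and 315 counts and was 2.91-fold (2.45 to 3.49) higher on day 3. These 3 were all highest on day 3, as Col1a1 was. Mmp14, the membrane protease that activates Mmp2, had 73, 40, 11 and 57 counts and was 6.21-fold (3.40 to 13.5) lower on day 6.

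Of 18 listed TGF-beta and CCN genes, 9, 9 and 8 reached 50 counts in the comparisons of days 3, 6 and 9 with day 0. On each of these days 1 was higher and 1 lower. Among all genes with that many counts, 8.54, 7.48 and 10.7% were higher and 7.88, 13.1 and 10.4% lower. So few calls are no result about the list as a whole. Wisp2, a CCN protein of fibroblasts, had 61, 317, 287 and 143 counts and was 5.14-fold (3.92 to 6.92) higher on day 3. Ctgf, the profibrotic connective tissue growth factor, had 575, 833, 285 and 357 counts and was 2.82-fold (2.47 to 3.24) lower on day 6 than on day 3. Ltbp4, which holds latent TGF-beta in the matrix, had 275, 289, 356 and 109 counts and was 2.40-fold (1.92 to 3.03) lower on day 9. Tgfb1, a TGF-beta ligand, had 56, 49, 48 and 42 counts and was not called in any comparison.

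In all, 34 of the 62 members were called in no comparison and 28 in at least 1. The 28 were among 39 members with 50 counts in a library, and 38.5% of all such genes were called in at least 1 comparison. Some of the 28, such as Loxl1 and Loxl2, reached 50 counts only in libraries where they were high, so this count too is a description. Of the 34, 13 averaged under 10 counts, among them Tnc, Tnxb, Lama1, Lama3, Col5a1 and Col11a2, and could hardly meet the rule. Those with the most counts were Sparcl1, Bgn, Col6a1, Col17a1 and Fn1, which reached 478 to 1320 counts. Some of their intervals passed 2, as for Col6a1 on day 3, Col17a1 on days 3 and 9 and Fn1 on day 6 against day 3, at 1.96-fold (1.67 to 2.30) lower, so these counts do not place the ratios under 2.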

How the data were processed

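Members, lists and rules were chosen with earlier results of these data known. A gene's deposited count is the sum of its tags' copies, per the file headers, and 0 of the gene rows departed from that. The authors also gave it as CPM, in a column headed TPM, relative to the tags seen 2 or more times. Rnor_6.0 is named in the submitters' processing notes, while the aligner and annotation, not given in the sources used here, remain unknown. Deposited counts were joined by gene ID and scaled with TMM factors (1.01, 1.02, 0.989 and 0.978 on days 0, 3, 6 and 9) from edgeR 4.0.16. Ratios used a prior count of 0.5. With 1 library a day neither edgeR nor DESeq2 1.42.0 can test across animals, so the size rule replaced a test. The rule was tried on simulated counts with counting error alone. Those counts held no spread between animals, so the trial cannot show how the rule fares with it. Of the member IDs, 61 of 62 were in the RefSeq gene table of assembly GRCr8, and no coordinates were used.

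Members were named if they had at least 100 counts in a library and a call in at least 1 of 5 comparisons, or the most counts of their role group, which gave 25. Results for 1 of these and for 1 gene of the TGF-beta and CCN list are not reported here, and 24 are drawn in the figures. In each processing list the 2 to 4 genes furthest from day 0 or from the day before were named, and marker lists are given mainly as sums. The remaining members with a call, Loxl1, Loxl2 and Col13a1, the uncalled members with values in the text, Ppib, P4hb, P4ha2, Tgfb1 and Chad were chosen after their values were seen. Tags are from the deposited tables. Tags printed for a member hold most of its copies or at least 10% in a library, and the Thbs4, Aldh9a1 and unassigned tags are printed only for their likeness to a member's tag.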

Additional observations from a re-analysis of the deposited data

How the results depend on the processing

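The count of members higher than on day 0 kept within 1.5-fold under every scaling, with the authors' CPM plus 1, no floor, a prior count of 5 and the most abundant tag alone, and the medians of the members kept their sign in all 5 comparisons. With a count floor of 200, 12, 9 and 7 members were higher and 0 lower on days 3, 6 and 9, and 1 and 2 were higher on day 6 against day 3 and on day 9 against day 6, since fewer members reach that floor. With no floor, 2 were lower on day 6 and 2 on day 9 against day 0, 6 on day 6 against day 3, and 6 on day 9 against day 6. On day 6 against day 3, 1 member was higher in place of 2 under library totals with or without the 20 genes of highest count, DESeq2 size factors, the authors' CPM, a prior count of 5 or the most abundant tag. Lower members were then 4 with library totals and with the authors' CPM, and 6 with the most abundant tag. Library totals gave 2 lower on day 9 against day 0, and the most abundant tag gave 3 lower on day 6 against day 0. The cause was not tested. Of 125 ratios of named members, 27 left their counting interval with the most abundant tag alone, 12 with the authors' CPM and none with DESeq2 size factors. With 1 library a day no replicate could be left out. No paired analysis was possible because each day has 1 library and the titles give no replicate number. Counts set the limits: 13 of the 62 members had a mean under 10, and intervals cover counting error only.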

Other observations

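Some collagen transcripts stood outside the symbol rule. An entry with a UniGene-type identifier and no symbol, described in the deposited tables as similar to the collagen alpha-2(I) chain, had 92, 572, 332 and 326 counts on days 0, 3, 6 and 9. It was 6.16-fold higher on day 3 and 3.70-fold higher on day 6, against 3.42-fold and 2.00-fold for Col1a2 itself. An entry described as the collagen alpha-3(VI) chain had 34, 89, 41 and 36 counts and was 2.58-fold higher on day 3, beside 3.16-fold for Col6a2.

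The site 1 tag of Col1a2 runs into a stretch of A, and a second tag assigned to the gene, CATGaacatttgaaaaaaaaa, had 102, 556, 368 and 250 copies. A further tag, CATGaacatttaaaaaaaaaa, differs from the second by G12A, counted from 1 at the 5' end, and stood under no gene. It had 140, 621, 445 and 271 copies, highest on day 3 and lowest on day 0, as both assigned site 1 tags were.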
